A study of Mus musculus with 24 samples.

Results

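Cytosolic sulfotransferases, the Sult family, were followed across the livers of lipodystrophic and control mice. Their members here were the 9 genes Sult1a1, Sult1b1, Sult1c2, Sult1d1, Sult1e1, Sult2a1, Sult2a8, Sult3a1, and Sult5a1, taken by symbol from the 23972 genes counted in liver RNA, and 11 more Sult genes of the same table served for comparison. The mice were female, ate a diet with 60% of its energy as fat, and lived at 22°C. Control mice (labelled Lmna.WT) were by the methods Lmna fl/fl without Adipoq-Cre, and Lmna ADKO mice (labelled Lmna.KO) were Lmna fl/fl with Adipoq-Cre, so that exons 10 and 11 of Lmna, which encodes lamin A/C, lie between loxP sites in every animal and are removed in fat cells but not by design in liver. Mice were 12 to 14 weeks old at the start, had eaten the diet for 4 weeks when they received vehicle or an AAV8 vector for mouse FGF21, and were euthanized 8 weeks after that. There were 7 libraries of control mice with vehicle, 3 of control mice with FGF21, 6 of Lmna ADKO mice with vehicle, and 8 of Lmna ADKO mice with FGF21.

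The labels name the vector treatment a rescue, which was read as FGF21 from the methods, and counts on Fgf21 did not set the groups so labelled apart from vehicle (adjusted p = 0.9248 in control and 0.7298 in Lmna ADKO mice, edgeR). Lmna itself was not lower in Lmna ADKO livers, at 18.6 ± 2.47 CPM (counts scaled for library size; SD, n = 7) in control and 26.7 ± 2.57 (SD, n = 6) in Lmna ADKO mice with vehicle, and in a liver library it does not check a deletion in fat. Each library held between 19863304 and 21510054 counts on genes. Libraries are numbered within each group. Each number stands for 1 animal number in the labels. Animal numbers had 3 digits in 6 of 7 libraries of control mice with vehicle and 0 of 3 with FGF21. In Lmna ADKO mice they had 3 digits in 1 of 6 with vehicle and 4 of 8 with FGF21. All other animal numbers had 4 digits. Genotype with vehicle, and FGF21 in control mice, were therefore largely confounded with the length of the number, whose meaning the labels do not give.

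Sulfotransferases move a sulfonate group from the cofactor PAPS (3'-phosphoadenosine 5'-phosphosulfate) onto hormones, bile acids, drugs, and other small molecules, which makes most of them more soluble in water and easier to excrete. Enzymes of the Sult1 family act mainly on phenols, estrogens, thyroid hormones, and catecholamines, and those of the Sult2 family on hydroxysteroids and bile acids. Liver is a main site of the reaction, and in rodents several of these genes, Sult2a1 and Sult3a1 among them, are known for a higher level in the female liver.

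The stretches of DNA just upstream of the transcription start are shown for 4 of the members whose level was lower in Lmna ADKO livers and for Sult1e1, the member with a higher mean there, to set the upstream DNA of the lower genes beside that of one that was not lower. RefSeq (GRCm38.p6) gave 10 windows for 8 of the members, and Sult2a1 had no entry. Each line gives the 250 bases before the start, 5' to 3' on the gene's own strand: chr7:126676419-126676668 (minus strand) for Sult1a1, chr7:14446588-14446837 (minus) for the first start of Sult2a8, chr10:33857472-33857721 (plus) for Sult3a1, chr8:123158281-123158530 (minus) for Sult5a1, and chr5:87591612-87591861 (minus) for Sult1e1. Capitals mark exact matches, on either strand, to TATAAA (the TATA box), AGGTCA (the nuclear receptor half-site), or TTCNNNGAA (the STAT motif).
Sult1a1: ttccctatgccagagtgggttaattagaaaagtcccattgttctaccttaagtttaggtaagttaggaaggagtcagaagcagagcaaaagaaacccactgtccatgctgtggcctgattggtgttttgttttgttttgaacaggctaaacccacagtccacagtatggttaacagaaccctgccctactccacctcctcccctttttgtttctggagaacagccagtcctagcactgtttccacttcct
Sult2a8: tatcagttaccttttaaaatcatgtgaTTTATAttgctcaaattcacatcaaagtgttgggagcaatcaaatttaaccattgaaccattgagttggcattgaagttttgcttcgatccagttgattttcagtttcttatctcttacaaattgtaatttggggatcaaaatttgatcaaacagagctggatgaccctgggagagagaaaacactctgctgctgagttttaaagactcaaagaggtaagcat
Sult3a1: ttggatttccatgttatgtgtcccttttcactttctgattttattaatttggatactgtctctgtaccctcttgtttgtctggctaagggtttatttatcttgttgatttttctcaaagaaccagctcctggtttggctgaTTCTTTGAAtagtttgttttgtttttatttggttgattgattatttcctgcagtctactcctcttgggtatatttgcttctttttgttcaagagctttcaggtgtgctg
Sult5a1: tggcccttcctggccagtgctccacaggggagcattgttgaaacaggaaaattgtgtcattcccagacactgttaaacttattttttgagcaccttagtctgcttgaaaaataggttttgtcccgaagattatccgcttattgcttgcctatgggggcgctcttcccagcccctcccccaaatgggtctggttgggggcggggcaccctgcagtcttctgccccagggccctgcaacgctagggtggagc
Sult1e1: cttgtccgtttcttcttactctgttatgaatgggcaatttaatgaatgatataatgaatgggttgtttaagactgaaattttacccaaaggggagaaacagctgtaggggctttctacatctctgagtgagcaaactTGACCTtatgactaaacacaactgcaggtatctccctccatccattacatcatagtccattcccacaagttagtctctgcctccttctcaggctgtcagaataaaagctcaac
The first window of Sult2a8 held TATAAA on the opposite strand (12.4% of all 32851 such windows), its other window held TATAAA and 2 matches to AGGTCA (4607 of all windows), Sult3a1 held TTCNNNGAA (7.02%), and Sult1e1 held AGGTCA on the opposite strand. The windows of Sult1a1 and Sult5a1 held none of the 3 motifs. Of the uncalled members whose windows are not shown, the first window of Sult1b1 also held AGGTCA on the opposite strand. Its other window and those of Sult1c2 and Sult1d1 held none. A match of these letters is a description and not a binding site.

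All 9 members were counted in liver, at very different levels. Levels of different genes were compared as CPM per kilobase of exons. In control mice with vehicle, Sult1a1, the main phenol sulfotransferase, stood highest at 283 ± 78.7 CPM per kb (SD, n = 7), followed by the hydroxysteroid sulfotransferase Sult2a1 at 236 ± 154. Sult2a8, a bile acid sulfotransferase, had 53.5 ± 19.3, and Sult1d1, which acts on catecholamines, 47.8 ± 8.24. The lowest library of Sult1d1 had 42.4 CPM per kb and the highest of Sult1c2, next in order, 10.1. Sult1c2 (7.98 ± 1.49), Sult1b1 (7.08 ± 2.24), the thyroid hormone sulfotransferase, and Sult3a1 (5.49 ± 7.35), which acts on amines, came next. Sult5a1, whose substrates are little known (0.737 ± 0.388), and the estrogen sulfotransferase Sult1e1 (0.681 ± 0.552) were lowest. Other than Sult1d1 and Sult1c2, neighbours in this order overlapped in their ranges, and differences between genes were not tested. Sult2a1 overlapped with Sult2a8, whose highest library had 88.3 CPM per kb, through control library 4 alone, at 1.35.

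**Figure D1:**
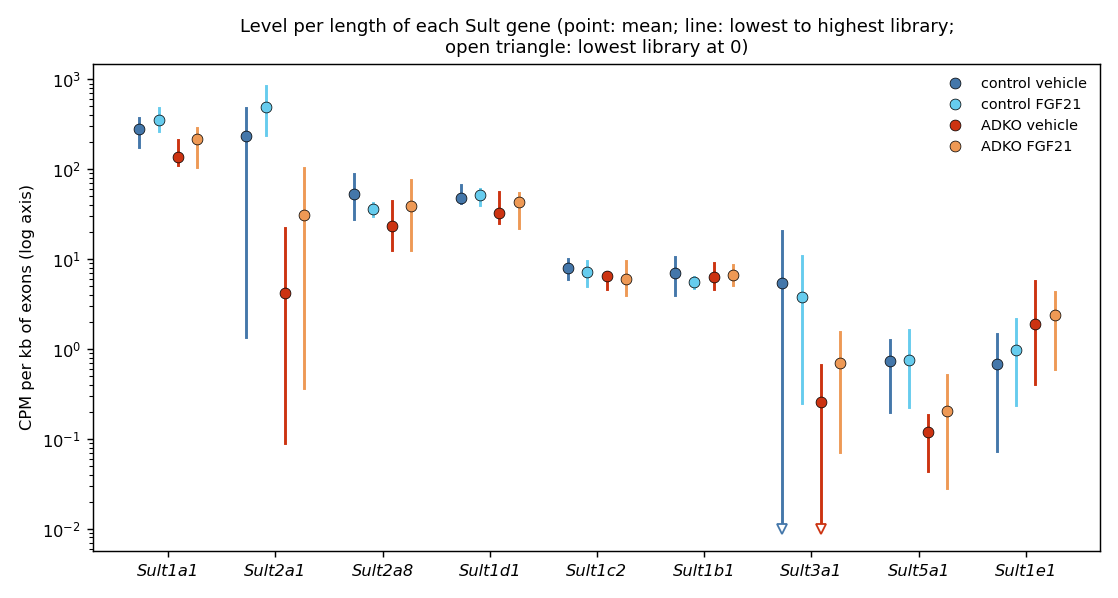
Mean level of each of the 9 members in each of the 4 groups, in CPM per kb of exons on a log axis, with lines from the lowest to the highest library and open triangles where the lowest library had 0 counts. Sult1a1 led in both Lmna ADKO groups, and the mean of Sult2a1 moved from 236 in control mice with vehicle to 4.19 in Lmna ADKO mice with vehicle.

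Sult2a1 changed its place in the order more than any other member. Its mean ranked 2 of the 9 in control mice with vehicle, 1 in control mice with FGF21, 6 in Lmna ADKO mice with vehicle (4.19 ± 8.90 CPM per kb, n = 6), and 4 in Lmna ADKO mice with FGF21 (31.3 ± 33.4, n = 8). Its share of the summed CPM per kb of the 9 members had a median of 35.9% in control mice with vehicle, with libraries from 0.394% to 49.8%, and of 0.349% in Lmna ADKO mice with vehicle, with libraries from 0.0506% to 6.37%. The share of Sult1a1 went the other way, from a median of 43.9% to 65.7%, while its own level fell. Shares of one sum depend on each other.

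In the comparison of Lmna ADKO with control mice given vehicle, 5 of the 9 members were called lower and 0 higher, where a gene is called at an adjusted p under 0.05 and a fold change above 1.5 in edgeR. Over all genes tested, 8.48% were called in either direction, 3.36% lower and 5.12% higher. The members' median log2 fold change was -1.04, beside 0.0027 over all genes, and 8 of the 9 were negative. The 5 were Sult2a1, Sult3a1, Sult5a1, Sult2a8, and Sult1a1, from the largest change to the smallest. In whole liver, fewer cells with a transcript and less of it per cell cannot be told apart.

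**Figure D2:**
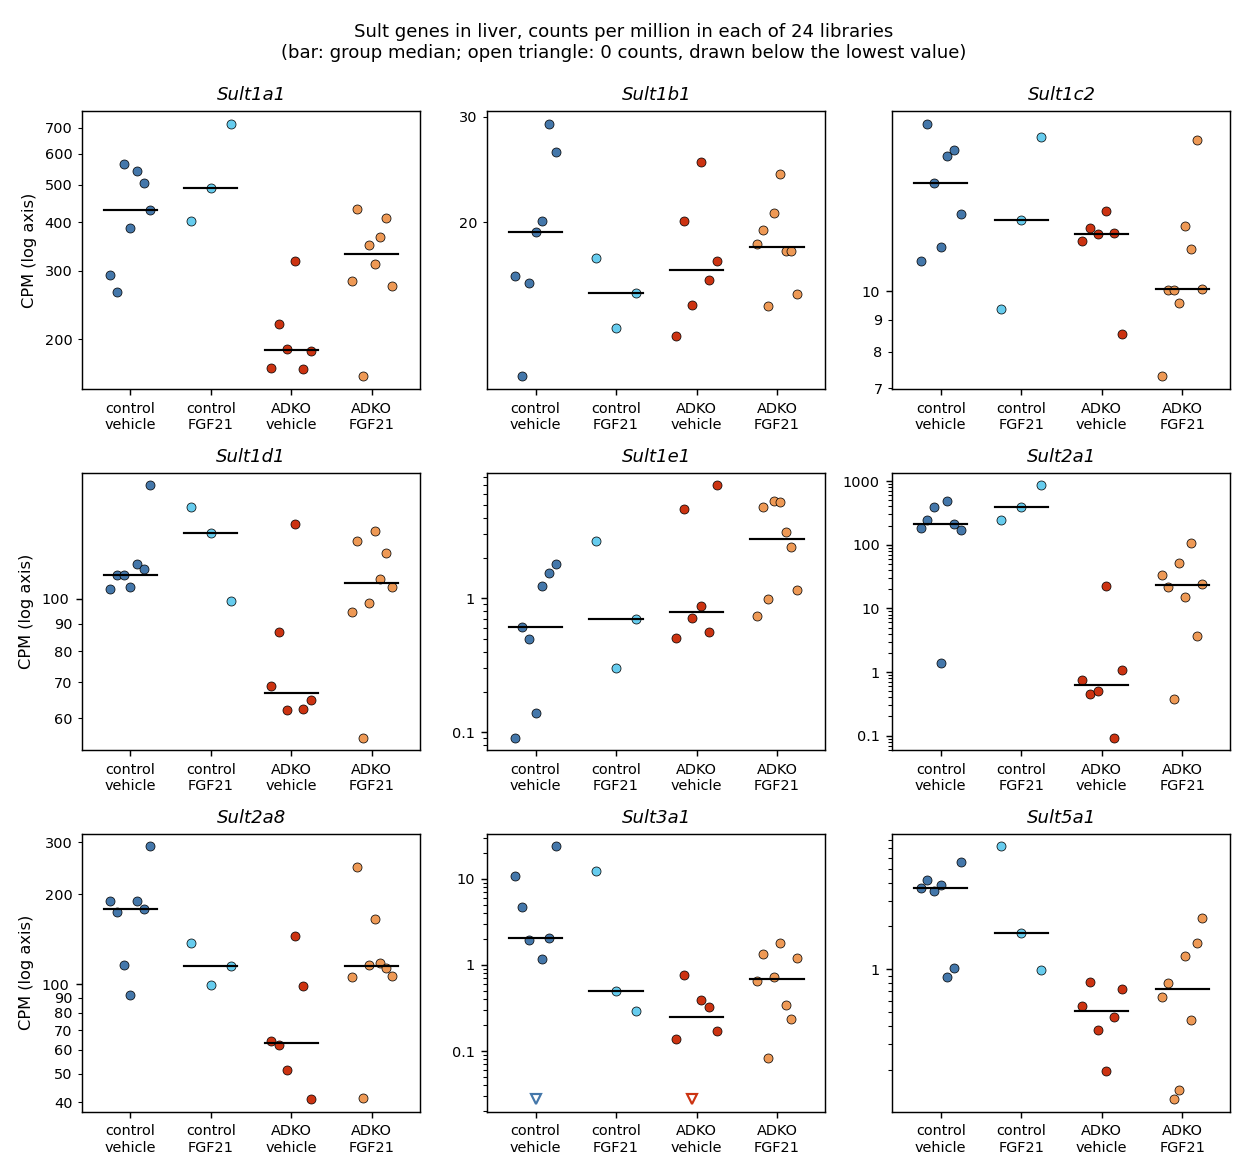
CPM of each of the 9 members in each of the 24 libraries, on a log axis of its own for each gene, with a bar at the group median and open triangles for 0 counts. All 6 Lmna ADKO libraries with vehicle lie below all 7 control libraries with vehicle for Sult5a1, and for the other 8 genes these groups overlap.

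Sult2a1 adds sulfonate to bile acids and to steroids such as dehydroepiandrosterone. With vehicle it ran from 1.38 CPM over a median of 214 to 488 in control mice, and from 0.0926 over a median of 0.621 to 22.8 in Lmna ADKO mice. The groups overlapped through 2 libraries, since control library 4 had 1.38 CPM (30 counts) while the other 6 had 173 or more, and Lmna ADKO library 4 had 22.8 CPM (468 counts) while the other 5 had 1.07 or less. Its log2 fold change was -5.84 (SE 1.324, adjusted p = 0.004414), which is 57.2-fold lower with a 95% interval of -8.60 to -3.08 on the log2 scale. Without Lmna ADKO library 4 the log2 fold change was -8.70 (adjusted p = 0.0003086), and without control library 4 it was -6.06 (adjusted p = 0.001803).

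Sult2a1 has close relatives beside it on chromosome 7, where it lies at chr7:13796246-13837409 on the minus strand (GENCODE M21, GRCm38). Of its 100-base exonic windows, 11.4% occur in the same letters in another gene, all of them in Sult2a2, so a read there cannot be given to either gene by its sequence. The share was larger for Sult2a2 (34.58%) and Sult2a5 (16.58%), and was 5.76% for Sult2a4. Levels of each of these genes are uncertain to the extent of its own share. Sult2a2 (log2 fold change -4.49), Sult2a3 (-5.01), and Sult2a5 (-4.93) were called lower too in Lmna ADKO mice with vehicle, as was Sult2a4 (adjusted p = 0.02034) at a few counts per library, and none of the windows of Sult2a3 was shared. Sult2a7 had a log2 fold change of -2.02 and was not called (adjusted p = 0.219). The sum of Sult2a1 to Sult2a7, taken as 1 feature after the data were seen, had a log2 fold change of -4.44 (SE 1.099, adjusted p = 0.008228), and a sum does not depend on how reads were divided between these 7 genes.

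Sult2a8, at chr7:14410686-14446769 on the minus strand, shares no such window with another gene. It ran from 91.6 CPM over a median of 178 to 290 in control mice and from 41.0 over a median of 63.4 to 145 in Lmna ADKO mice with vehicle. Only 2 Lmna ADKO libraries, at 98.3 and 145 CPM, reached the control range. Its log2 fold change was -1.19 (SE 0.3384, adjusted p = 0.01937).

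Sult3a1, at chr10:33857721-33879532 on the plus strand, had few counts in most libraries. It ran from 0 over a median of 2.04 to 23.8 CPM in control mice with vehicle and from 0 over a median of 0.247 to 0.766 in Lmna ADKO mice with vehicle. The 0 counts were in control library 4, the one low in Sult2a1, and in Lmna ADKO library 3, and the other 6 control libraries, at 1.18 CPM or more, lay above every Lmna ADKO library. Its log2 fold change was -4.40 (SE 1.139, adjusted p = 0.01113). It was -3.52 without control library 7, the highest (adjusted p = 0.0311), and -5.20 with the length of the animal numbers, 3 or 4 digits, as a covariate (adjusted p = 0.006983). Its relative Sult3a2 had at most 1.22 CPM in any library and was not called (adjusted p = 0.0556).

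Sult5a1, at chr8:123140192-123158315 on the minus strand, was the member whose vehicle groups did not overlap, as was so, in the lower direction, for 3.73% of all genes. It ran from 0.885 CPM over a median of 3.68 to 5.60 in control mice and from 0.195 over a median of 0.509 to 0.811 in Lmna ADKO mice. Control libraries 5 and 6, at 0.885 and 1.02 CPM, lay near the Lmna ADKO libraries and the other 5 control libraries at 3.54 or more. Its log2 fold change was -2.63 (SE 0.607, adjusted p = 0.004605), which is 6.17-fold lower, and it was -3.36 with the length of the animal numbers as a covariate (adjusted p = 0.001785).

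Sult1a1, at chr7:126672865-126676432 on the minus strand, was the most abundant called member and changed with the smallest error. It ran from 265 CPM over a median of 430 to 566 in control mice and from 167 over a median of 188 to 318 in Lmna ADKO mice with vehicle. A single Lmna ADKO library, number 4, lay in the control range. Its log2 fold change was -1.04 (SE 0.2147, adjusted p = 0.001346), which is 2.05-fold lower.

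The other 4 members were not called with vehicle. Sult1d1 ran from 104 CPM over a median of 111 to 163 in control mice and from 62.3 over a median of 67.0 to 138 in Lmna ADKO mice, where library 4 was again the highest and the other 5 lay below all control libraries. Its adjusted p was 0.04609 at a log2 fold change of -0.55 (SE 0.1858), and at 1.46-fold it stayed under the fold threshold. By the adjusted p alone 6 of the 9 members passed, beside 15.1% of all genes. Without Lmna ADKO library 4 Sult1d1 was called (log2 fold change -0.77, adjusted p = 0.001521).

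Sult1b1 and Sult1c2 were not called, and both overlapped between genotypes. Sult1b1 had 19.7 ± 6.23 CPM (SD, n = 7) in control and 17.7 ± 4.41 (SD, n = 6) in Lmna ADKO mice with vehicle, and the 95% interval of its log2 fold change was -0.52 to 0.20. Sult1c2 had 14.7 ± 2.75 and 11.9 ± 1.71 CPM, with an interval of -0.64 to 0.03.

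Sult1e1 was the only member with a higher fitted level in Lmna ADKO mice with vehicle, by 2.83-fold (SE 0.7552 on the log2 scale, adjusted p = 0.2105), and it was not called. It ran from 0.0907 CPM over a median of 0.609 to 1.80 in control mice and from 0.509 over a median of 0.793 to 7.01 in Lmna ADKO mice. The higher mean came from libraries 2 and 6, at 4.64 and 7.01 CPM, while the other 4 lay between 0.509 and 0.876, within the control range. Without library 6 the log2 fold change was 0.79.

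**Figure D3:**
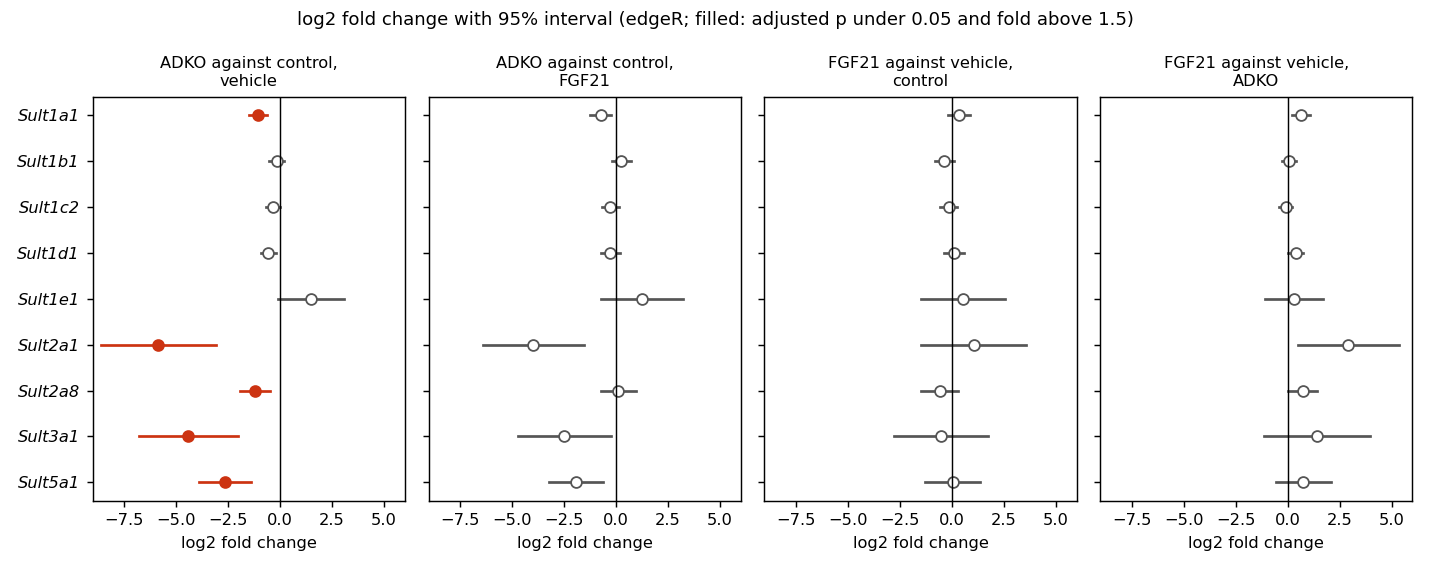
log2 fold change (point) and 95% interval (line) of each of the 9 members in the 4 comparisons, filled in red where the gene was called. Of these 9 members, called ones appear only in the comparison of genotypes with vehicle, where the 5 run from -5.84 for Sult2a1 to -1.04 for Sult1a1.

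With FGF21, 0 of the 9 members were called between genotypes in edgeR, where 2.88% of all genes were called and 1.26% were called lower. DESeq2 called 3, Sult2a1, Sult5a1, and Sult1a1, and edgeR on the genes kept by its expression filter called 2, Sult2a1 and Sult5a1, all lower. Of all genes, 2.75% of the 16062 with an adjusted p in DESeq2 and 2.49% of the 14680 kept by the filter were called lower. At an unadjusted p under 0.05, 4 of the 9 were lower, beside 8.17% of all genes. This comparison has 3 control libraries. It compares other libraries than the comparison under vehicle, but both came from 1 fit of all 24 libraries that shares its estimates of spread. The members' median log2 fold change was -0.26, beside 0.0185 over all genes.

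Sult2a1 had 246, 392, and 864 CPM in the 3 control libraries with FGF21, and ran from 0.373 over a median of 23.2 to 106 in the 8 Lmna ADKO libraries with FGF21. The 864 CPM was in control library 3 with FGF21, 1 of 3 libraries whose slope of log2 CPM on log2 gene length lay apart. The groups did not overlap, as was so, in the lower direction, for 2.37% of all genes. Its log2 fold change was -3.97 (SE 1.168, adjusted p = 0.06204). Among the other Sult genes, Sult2a3 (-3.85, adjusted p = 0.04515) and Sult2a5 (-4.40, adjusted p = 0.01257) were called lower, and the sum of Sult2a1 to Sult2a7 had -3.46 (adjusted p = 0.07031).

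Sult5a1 had 7.18, 1.80, and 0.990 CPM in control mice with FGF21 and ran from 0.124 over a median of 0.724 to 2.27 in Lmna ADKO mice with FGF21, with a log2 fold change of -1.90 (SE 0.6303, adjusted p = 0.09732). Sult1a1 had 403, 490, and 718 CPM and ran from 160 over a median of 330 to 434, with a log2 fold change of -0.73 (SE 0.2475, adjusted p = 0.09994). For both genes the groups overlapped. Sult3a1 had 12.5, 0.499, and 0.291 CPM in control mice with FGF21, so its log2 fold change of -2.47 (adjusted p = 0.2374) rested on control library 1, and was 0.99 without that library.

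Sult2a8 had 138, 99.4, and 115 CPM in control mice with FGF21, a range from 41.4 over a median of 115 to 248 in Lmna ADKO mice with FGF21, and a log2 fold change of 0.11 (95% interval -0.73 to 0.95). The genotype difference of Sult2a8 differed between treatments with an unadjusted p of 0.02443 (95% interval of the difference 0.18 to 2.41 on the log2 scale), but the adjusted p of this interaction was 0.9836. For the other 8 members the unadjusted p of the interaction was 0.1349 or more, and 0 of the 9 were called, beside 0.00417% of all genes. At an unadjusted p under 0.05, 1 of the 9 and 4.86% of all genes passed. No difference between treatments in the effect of genotype was therefore shown for any member, by edgeR or by DESeq2.

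FGF21 against vehicle gave 0 called members in either genotype, in edgeR and in DESeq2. These comparisons use the same libraries as the comparisons of genotypes. In control mice 0.0542% of all genes were called, and 0 of the 9 members reached an unadjusted p under 0.05, beside 6.16% of all genes. In Lmna ADKO mice 0% of all genes were called by edgeR, and 4 of the 9 members reached an unadjusted p under 0.05, beside 6.71% of all genes. The 4 were Sult1a1 (log2 fold change 0.64, unadjusted p = 0.004825, adjusted p = 0.6517), Sult2a1 (2.92, 0.02025, and 0.7038), Sult2a8 (0.72, 0.0393, and 0.7038), and Sult1d1 (0.39, 0.03938, and 0.7038), all positive. The 8 libraries with FGF21 were higher in the median for these 4 genes, and overlapped with the 6 with vehicle for each. The median log2 fold change of the 9 members was 0.64, beside 0.0038 over all genes, and none of it passed the adjustment.

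The size of the FGF21 difference in Sult2a1 in Lmna ADKO mice depended on 1 library, and was larger without it. Lmna ADKO mice with vehicle had 5 libraries at 1.07 CPM or less and library 4 at 22.8, and with FGF21 6 of the 8 libraries had 15.0 CPM or more while library 3 had 0.373 and library 7 had 3.70. Without Lmna ADKO library 4 with vehicle the log2 fold change was 5.78 in place of 2.92, and its adjusted p was 0.2153. In control mice with FGF21 all 3 libraries lay within or above the range with vehicle, and the log2 fold change was 1.05 (95% interval -1.49 to 3.59).

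Single libraries stood apart over several members at once. Lmna ADKO library 4 with vehicle was the highest of its 6 for 6 of the 9 members, and Lmna ADKO library 3 with FGF21 was the lowest of its 8 for 7 of the 9. The same libraries stood apart on other liver genes. This was counted on CPM without TMM scaling, unlike the counts over members. Lmna ADKO library 4 with vehicle was the highest for 7 of 11 hepatocyte and 7 of 15 female-biased genes. Lmna ADKO library 3 with FGF21 was the lowest for 7 of 11 hepatocyte genes, but for 4 of 15 female-biased genes, where library 7 of its group was the lowest for 5. Control library 7 with vehicle was the highest of its 7 for 5 members. Control library 4 with vehicle was the lowest of its 7 for Sult2a1, Sult2a8, and Sult3a1, and at 388 CPM of Sult1a1 and 105 CPM of Sult1d1 it lay within the range of its group. On the slope of level on gene length, control library 3 with vehicle (-0.1535), control library 3 with FGF21 (-0.2895), and Lmna ADKO library 7 with FGF21 (-0.3309) lay apart. The other 21 libraries ran from -0.109 to 0.128. Control library 3 with FGF21 was the highest of its 3 for Sult2a1 and Sult1a1.

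Some members varied widely within groups. As the pooled SD of log2 CPM within groups, Sult2a1 had 2.46 and ranked 8 among 12492 genes whose mean log2 CPM was 0 or more, Sult1e1 had 1.33 and ranked 55, and Sult5a1 had 1.06 and ranked 105. Sult2a8 (0.622), Sult1a1 (0.42), Sult1d1 (0.36), Sult1b1 (0.343), and Sult1c2 (0.32) followed, all above the median of 0.254 over these genes. Sult3a1, at 1.87, had too low a mean to be ranked.

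**Figure D4:**
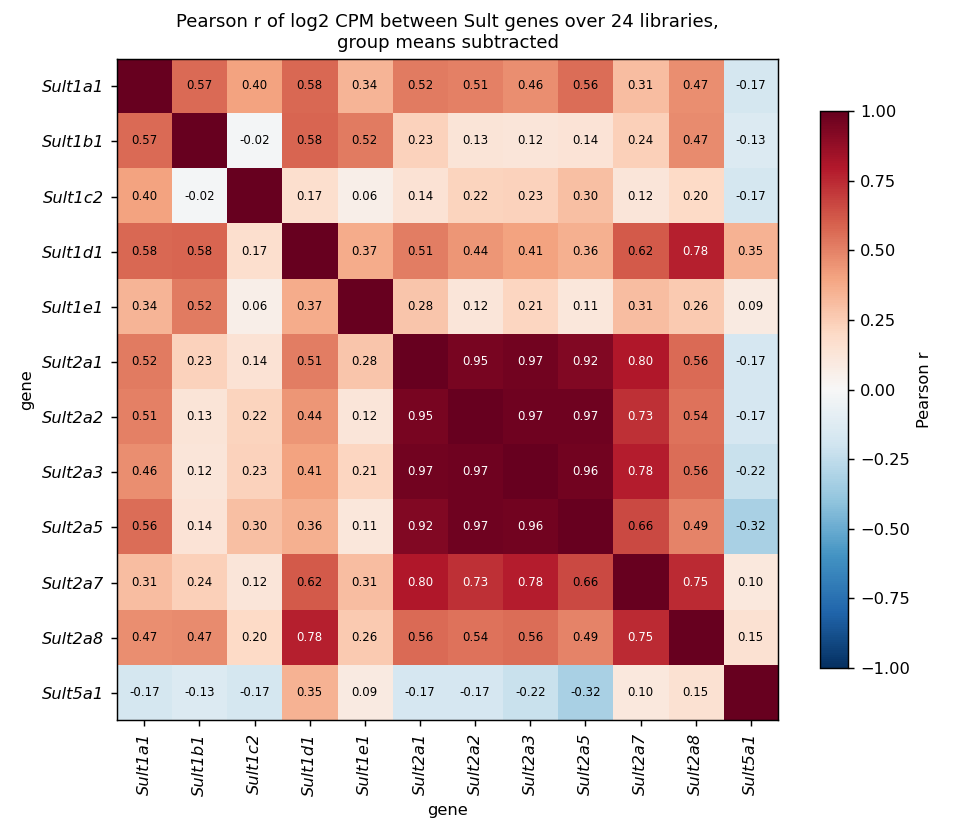
Pearson r of log2 CPM between Sult genes over the 24 libraries after the group means were subtracted, with color from blue (-1) to red (1). Sult2a1, Sult2a2, Sult2a3, and Sult2a5 form a block at 0.92 or above, and Sult5a1 has values from -0.32 to 0.35 with the other genes.

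Some members varied together and others did not. After group means were subtracted, Sult2a1 had a Pearson r over the 24 libraries of 0.967 with Sult2a3, with which it shares no 100-base window. Its r was 0.953 with Sult2a2 and 0.922 with Sult2a5, and both share such windows with it. Sult2a8 had 0.775 with Sult1d1 and 0.749 with Sult2a7, and a lower 0.565 with Sult2a1. Sult1a1 had 0.577 with Sult1d1, 0.567 with Sult1b1, 0.522 with Sult2a1, and 0.468 with Sult2a8, and a lower 0.404 with Sult1c2 and 0.34 with Sult1e1. Without the 3 libraries apart on gene length, it had 0.743 with Sult1d1 and 0.239 with Sult1c2. Among the members, Sult1c2 had values from -0.175 with Sult5a1 to 0.404 with Sult1a1. Sult5a1 had values from -0.175 with Sult1c2 to 0.35 with Sult1d1 among the members. These are descriptions over libraries that share their groups, treatment, and depth.

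Genes with the most similar pattern were sought for the 8 members whose mean log2 CPM was 0 or more. For Sult1a1 they were Pxmp2 (r = 0.936), Selenbp1 (0.915), and Gnmt (0.904), for Sult1b1 Zfp213 (0.87), Mpv17l (0.787), and Gid8 (0.776), and for Sult1c2 Hyi (0.851), Atp5g3 (0.827), and 1110028F11Rik (0.822). For Sult1d1 they were Ugt2a3 (0.852), a glucuronosyltransferase, Gpld1 (0.85), and Cdo1 (0.848), the cysteine dioxygenase that starts the making of sulfate from cysteine. For Sult2a8 they were Ndfip1 (0.844), Cyp2c50 (0.835), and Cyp2j5 (0.831), for Sult5a1 Rpl34-ps1 (0.734), Zcchc10 (0.663), and Crp (0.656), and for Sult1e1 the nuclear receptor gene Nr1i3 (0.774), A930033H14Rik (0.752), and Gm16573 (0.751). For Sult2a1 they were the 3 cluster genes above.

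The genes that make and move the cofactor changed in both directions. Of the 13 measured genes of sulfate uptake, PAPS synthesis, and PAPS transport and turnover, 2 were called higher and 2 lower in Lmna ADKO mice with vehicle. Over all genes 5.12% were called higher and 3.36% lower. The PAPS synthases went apart. Papss2, the main one in liver, was at 196 ± 32.9 CPM (SD, n = 7) in control and 106 ± 22.6 (SD, n = 6) in Lmna ADKO mice with vehicle (log2 fold change -0.89, adjusted p = 0.0002882), and Papss1 was at 8.46 ± 1.18 and 16.2 ± 1.94 (0.94, adjusted p = 2.988e-06). The same held for the sulfate transporters Slc26a1, which takes up sulfate in liver (-0.62, adjusted p = 1.067e-05), and Slc26a2 (0.62, adjusted p = 0.007555). With FGF21, Papss1 alone was called of the 13 (1.17, adjusted p = 4.139e-05).

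Of 22 factors known to act on Sult genes, 3 were called lower and 0 higher in Lmna ADKO mice with vehicle. Over all genes 3.36% were called lower, as were 816 of the 14680 genes in the fit on those kept by the expression filter. The 3 factors were Nr1i3, the constitutive androstane receptor (446 CPM in the mean of control and 222 of Lmna ADKO mice, adjusted p = 0.001572), Foxa2 (log2 fold change -0.80, 0.003467), and the estrogen receptor gene Esr1 (-0.67, 0.0116). Nr1i3 was also called lower with FGF21 (adjusted p = 0.002335). The receptor genes Ppara, Nr1i2, and Nr1h4 and the growth hormone signal transducer gene Stat5b were not called (adjusted p from 0.2239 to 0.7665). Cebpa and Rxra were not called either, but their vehicle groups did not overlap, as was so, in the lower direction, for 3.73% of all genes. Cebpa ran from 377 to 497 CPM in control and from 271 to 331 in Lmna ADKO mice, and Rxra from 435 to 583 and from 321 to 409. The median log2 fold change of the 22 factors was -0.17.

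Genes known for a sex difference in mouse liver changed as well. None of the members is in these lists. Over all genes 3.36% were called lower and 5.12% higher with vehicle, and 2.88% in either direction with FGF21. In Lmna ADKO mice with vehicle, 11 of 15 female-biased genes were called lower and 0 higher, led by Cyp3a16 (log2 fold change -10.01), Cyp3a41b (-9.86), Cyp3a41a (-8.88), and Cyp3a44 (-6.57), and of 15 male-biased genes 5 were called higher, led by Cyp4a12a and Mup20 (3.59), and 1 lower, Serpina1e (-2.52). With FGF21, 6 of the 15 female-biased genes were called lower and 3 of the 15 male-biased genes higher. On CPM without TMM scaling, control library 4 with vehicle was the lowest of its 7 libraries for 8 of the 15 female-biased genes and the highest for 2. Of the 15 male-biased genes, it was the highest for 5 and the lowest for 4. The same library was the lowest for Sult2a1 and Sult3a1. Any part of the sex-biased genes in the lower level of Sult genes was not tested.

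Some markers of liver cell types differed as well, where over all genes 5.12% were called higher and 3.36% lower with vehicle. With vehicle, 3 of 11 hepatocyte genes were called lower (Cps1, Serpina1c, and Cyp2e1), and their summed level ran from 91310 over a median of 127100 to 153800 CPM in control mice and from 77500 over a median of 98540 to 115100 in Lmna ADKO mice. Of 12 stellate cell genes 5 were called higher, led by Tagln (log2 fold change 1.36), with summed levels of 171 to 298 CPM against 216 to 380, and of 10 cholangiocyte genes 2 were called higher, Cftr (2.96) and Spp1 (1.83), with summed levels of 39.9 to 66.4 against 99.1 to 209. Macrophage genes gave 2 of 12 (Gpnmb and Cd9) and endothelial genes 2 of 10 (Lyve1 and Vwf) called higher, and lymphocyte and adipocyte genes 0 of 10 and 0 of 6. The macrophage and endothelial lists as a whole did not rise, with median log2 fold changes of -0.0455 and 0.0042. Median summed levels were 725 CPM in control and 658 in Lmna ADKO mice for macrophage genes, and 415 and 400 for endothelial genes. None of these lists had a called gene for FGF21 against vehicle in either genotype, nor had the cofactor, factor, or sex-biased lists. Whether these shifts bear on the Sult levels was not tested.

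The remaining Sult genes were near or under 3 counts in most libraries. Sult2a4 had a mean of 0.135 CPM in control mice with vehicle and 0.00772 in Lmna ADKO mice with vehicle, Sult2b1 0.0198 and 0.106, Sult3a2 0.248 and 0.0227, Sult4a1 0.0406 and 0.0911, Sult6b1 0.0772 and 0.0758, Sult2a-ps1 0.0781 and 0.00812, and Sult2a6 0 and 0.00812. The expressed cluster genes had means of 287 and 12.8 CPM for Sult2a2, 69.5 and 2.20 for Sult2a3, 20.3 and 0.682 for Sult2a5, and 42.1 and 10.4 for Sult2a7. With FGF21 the same 4 had 606 and 58.2, 174 and 12.1, 70.1 and 3.31, and 42.5 and 21.1 CPM in control and Lmna ADKO mice.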

How the data were processed

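Polyadenylated RNA of 24 livers of female mice was sequenced. The authors deposited 1 value per gene and library. The values are whole numbers, and the submitters' notes name RSEM 1.3.3 beside cutadapt 4.8, STAR 2.7.8a, FastQC 0.11.8, and GRCm38, so they were treated like RSEM's expected counts, rounded by the authors, which is an inference. Genes were located through GENCODE M21. No column lacked a sample. After TMM scaling, edgeR 4.0.16 (R 4.3.3) gave a robust quasi-likelihood F test, with 1 fit of 4 groups over all 23972 genes and Benjamini-Hochberg adjustment. A call needed an adjusted p under 0.05 and a fold change above 1.5, without the fold threshold for the interaction. SE was derived from F and the log2 fold change, CPM use TMM library sizes, log2 CPM a prior count of 2, and the floor was 3 counts. Only the counts of hepatocyte and sex-biased genes for which a library was highest or lowest used CPM without TMM scaling. The scripts were tested on simulated data.

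The members and lists were chosen with earlier results of these data known. Some listed genes and a motif are not reported here. Named genes were all Sult genes, up to 4 called genes per list with the largest change, and the 3 genes of highest Pearson r to each member whose mean log2 CPM was 0 or more. Some uncalled factors were named besides. Over the 67 pairs of libraries within groups, chi-square per degree of freedom (genes with at least 20 counts) was 14.1 to 196, so no library was merged. Labels do not tie libraries to litters or days, and p-values measure the spread between these animals. Alternatives were DESeq2 1.42.0, its size factors, the 14680 genes kept by filterByExpr, the adjusted p alone, only the groups compared, animal number length or the slope on gene length as covariates, libraries with 4-digit numbers, leaving out the 3 libraries apart on gene length, and leaving out each library. Summing Sult2a1 to Sult2a7 was chosen after seeing the data.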

Additional observations from a re-analysis of the deposited data

Results flagged for a closer look

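Outlying libraries were sought by Dixon's criterion on log2 CPM in the 3 groups with 6 to 8 libraries, and 5 of 27 combinations of gene and group passed, where chance gives about 1 in 20. In control mice with vehicle, library 4 lay far below the rest for Sult2a1, at 1.381 CPM, and library 7 far above the rest for Sult1d1, at 162.5 CPM. In Lmna ADKO mice with FGF21, library 3 lay below the rest for Sult1a1, at 160.1 CPM, and for Sult1d1, at 55.24 CPM. In Lmna ADKO mice with vehicle, library 6 lay below the rest for Sult1c2, at 8.546 CPM. With each of these libraries left out, the same 5 members were called between genotypes with vehicle.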

How the results depend on the processing

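With vehicle, the 5 called members kept their direction and their call in all 32 alternatives that gave a value for each, and the count of called members was 5, or 6 with Sult1d1 added, when the adjusted p was used alone, with animal number length as a covariate, or without Lmna ADKO library 4. Leaving out a library with FGF21 touched this comparison only through the shared fit, and the adjusted p alone could not remove a call. With FGF21, the count between genotypes was 0 except for 3 with DESeq2, 2 with filterByExpr, and 0 to 1 over the libraries left out in turn, where it was 1 without vehicle control library 4, vehicle Lmna ADKO library 4, or FGF21 Lmna ADKO library 6 (Sult2a1) or 8 (Sult5a1). The count was 0 in every alternative for FGF21 against vehicle in either genotype and for the interaction. All reversals were among uncalled log2 fold changes. Between genotypes with FGF21 leaving out 1 library gave -3.01 to 0.99 for Sult3a1 and -0.10 to 0.24 for Sult2a8. For FGF21 against vehicle in control mice, animal number length as a covariate gave -0.19 for Sult1d1 and -0.88 for Sult5a1, and leaving out 1 library gave extremes, the least and the greatest over all libraries, of -3.97 and 0.37 for Sult3a1, -1.21 and 0.46 for Sult5a1, -0.397 and 0.060 for Sult1c2, -0.77 and 1.01 for Sult1e1, and -0.02 and 0.25 for Sult1d1. In Lmna ADKO mice, the 4-digit libraries gave 0.13 for Sult1c2, and leaving out 1 library -0.0053 to 0.20 for Sult1b1. For the interaction the covariate gave 0.64 for Sult1e1, and leaving out 1 library gave -0.16 to 0.30 for Sult1c2 and -0.70 to 1.08 for Sult1e1. The causes were not tested. Over all genes, the count of calls moved by over 1.5 times for genotype with vehicle (2033) to 3623 by the adjusted p alone, for genotype with FGF21 (690) to 344 in only the groups compared, 148 in 4-digit libraries, 402 without the 3 libraries apart on gene length, and 339 to 1149 over libraries left out, for FGF21 in control mice (13) to 38 with DESeq2, 0 with the covariate, and 3 to 26 over libraries left out, for FGF21 in Lmna ADKO mice (0) to 15 with DESeq2, 2 in 4-digit libraries, and up to 61 over libraries left out, and for the interaction (1) to 13 with DESeq2, 5 without the 3 libraries apart on gene length, 3 with the length slope, 2 with DESeq2 size factors or filterByExpr, 0 with the covariate, and 0 to 5 over libraries left out. Alternatives with 4-digit libraries gave no value where a group had under 3 of them, and the interaction has no fit of only the groups compared and no fold threshold to drop. No paired analysis was possible because the labels give no number that is shared between groups. Depth limits Sult3a1, Sult5a1, and Sult1e1, whose lowest libraries over the 4 groups had 0, 3, and 2 counts. For Sult1e1 the 2 counts were in control mice with vehicle, and its lowest library of Lmna ADKO mice with vehicle had 11. Depth also limits Sult2a1 in Lmna ADKO mice with vehicle, where its lowest library had 2 counts and its median was 14 counts.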
